A study of Homo sapiens with 22 samples.

Results

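The vehicle-treated cells of 2 inhibitor experiments were compared with each other: 3 libraries named DMSO, from the experiment with HPOB and Tubastatin A, and 2 libraries named Ctrl, from the experiment with Nexturastat A. They are 5 of the 22 libraries of the series and were chosen by their group labels alone. Every library is labelled as wild-type MDA-MB231, the treatment label of both groups is DMSO, the solvent of the inhibitors, and both were sampled at day 2. The labels give medium with serum for all cells and name a dose only for Nexturastat A, an inhibitor of the tubulin deacetylase HDAC6 that neither vehicle group received. No label says whether the 2 groups came from the same frozen stock, passage, laboratory day or sequencing run, so a batch and a difference between cell stocks cannot be told apart in any result here. Nothing in the labels says that the libraries of a group came from separate cultures, and p-values then measure only the spread between these libraries, which may be technical.

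MDA-MB231 is an established human line of triple-negative breast cancer, so named because it lacks the oestrogen and progesterone receptors and an amplified ERBB2. It is known as a mesenchymal-like line, with abundant vimentin and little E-cadherin, and for a homozygous loss of CDKN2A. Cells of different origin can be told by lineage transcription factors, such as NKX2-1 in lung and thyroid or GATA3 in breast, and by the keratins, mucins, matrix proteins and surface receptors that these factors accompany. Major histocompatibility complex (MHC) class II molecules are made mainly by professional antigen-presenting cells. Other cells make them under the transactivator CIITA, which acts with RFX and NF-Y factors at class II promoters.

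The Ctrl libraries held 60.2 and 61.6 M counts (M for mega) and the DMSO libraries 36.9, 37.4 and 31.2 M. Levels below are library-scaled counts (CPM), set to a common scale over the 5 libraries, given with the standard deviation (SD), and differences are log2 fold changes of DMSO minus Ctrl with the standard error (SE) of edgeR's quasi-likelihood fit. A gene is called higher in a group when its Benjamini-Hochberg adjusted p was under 0.05 over the 15585 genes tested. A permutation of 3 against 2 libraries cannot give a p below 0.1, so single values were tested only through the fit across genes. In bulk libraries, fewer cells of a type and less RNA per cell cannot be told apart.

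The groups differed over most of the genome. Of the genes tested, 11530 (74.0%) were called, 5728 (36.8%) higher in DMSO and 5802 (37.2%) higher in Ctrl, and the libraries of the groups did not overlap for 12699 (81.5%). The median log2 difference over all genes was 0.0008. At 2-fold or more, 4719 genes (30.3%) were called. At 8-fold or more, 1324 genes (8.50%) were called, of which 746 (4.79%) were higher in DMSO and 578 (3.71%) in Ctrl. Across genes, the log2 CPM of libraries of the same group correlated at 0.996 to 0.997 and those of different groups at 0.904 to 0.910, where genes are not independent replicates. With such a background, a call alone says little of a gene, and sizes and levels are given throughout. Counts of called list members below are to be read against 36.8% higher in DMSO and 37.2% higher in Ctrl. Past 8-fold, the matching shares are 4.79% and 3.71%.

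**Figure D1:**
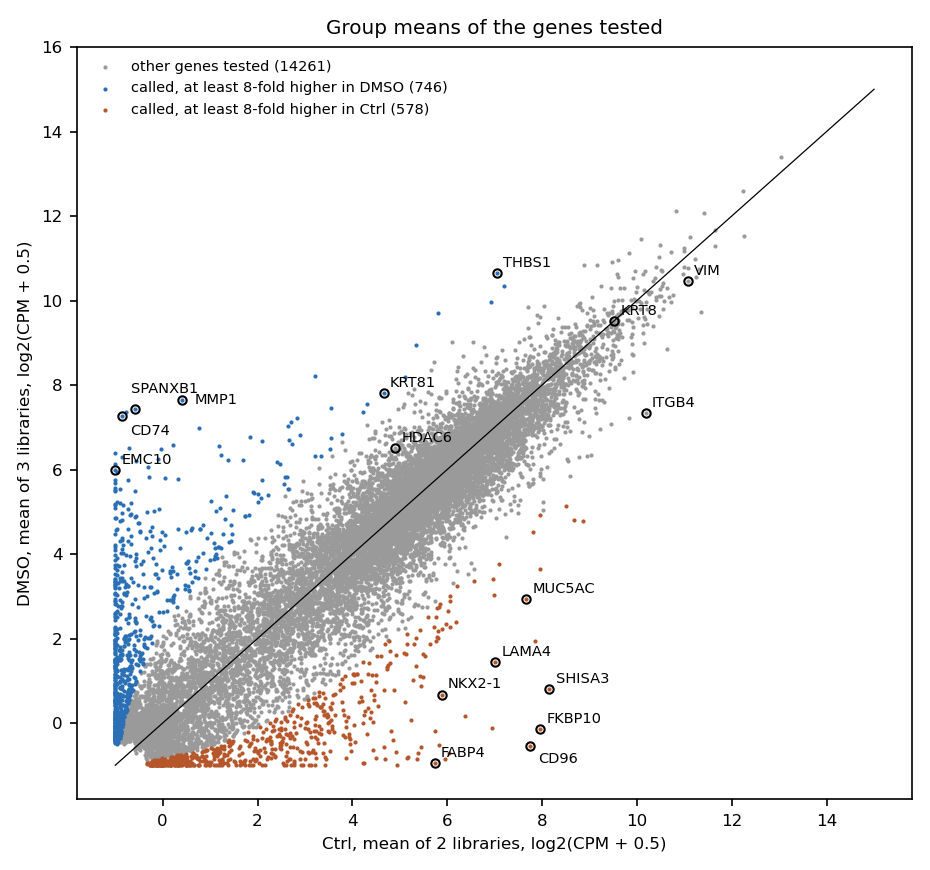
Mean log2(CPM + 0.5) of each tested gene in the 2 Ctrl libraries (x axis) against the 3 DMSO libraries (y axis), with the diagonal marking equal levels, the genes called past 8-fold coloured and some named genes circled. The 746 genes higher in DMSO lie above the diagonal and the 578 higher in Ctrl below it, with CD74 and MMP1 on the DMSO side and NKX2-1 and MUC5AC on the Ctrl side.

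Regulators of lung and other endodermal lineages were higher in Ctrl. NKX2-1, the homeodomain factor of lung and thyroid (chromosome 14, 36516392 to 36521149, GRCh38), stood at 64.6 and 52.6 CPM in the Ctrl libraries and at 1.52, 0.777 and 0.991 CPM in the DMSO libraries, a log2 difference of -5.73 ± 0.16 (SE). Its neighbour SFTA3, a lung-expressed transcript, read 30.5 and 28.9 CPM in Ctrl and 0.108, 0.0536 and 0.192 CPM in DMSO, a count ratio of 261 (95% counting interval 149 to 505). No library of either gene overlapped with the other group, as was so for 81.5% of all genes tested. NKX2-1-AS1 lies opposite NKX2-1, and without strand in the counting, reads of such pairs cannot be told apart. FOXA1, a pioneer factor of breast and endoderm, read 9.15 and 9.32 CPM in Ctrl, against 0.163, 0.241 and 0.256 CPM in DMSO, a count ratio of 42.3 (28.1 to 67.1). FOXA2, its endodermal relative, was present in both, at 89.2 CPM ± 12.97 (SD, n = 2) in Ctrl and 35.0 CPM ± 2.72 (SD, n = 3) in DMSO. HOPX, a marker of alveolar cells, read 5.54 CPM in Ctrl and 0.0788 CPM in DMSO.

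SFTA3 and NKX2-1 share a start window, which is shown because both genes had the same pattern. RefSeq (GRCh38.p14) gives 1 identical window of 250 bases upstream of a start of both genes, on chr14:36519557-36519806, minus strand. It is printed 5′ to 3′ with its 7 CG dinucleotides in capitals.
SFTA3 and NKX2-1: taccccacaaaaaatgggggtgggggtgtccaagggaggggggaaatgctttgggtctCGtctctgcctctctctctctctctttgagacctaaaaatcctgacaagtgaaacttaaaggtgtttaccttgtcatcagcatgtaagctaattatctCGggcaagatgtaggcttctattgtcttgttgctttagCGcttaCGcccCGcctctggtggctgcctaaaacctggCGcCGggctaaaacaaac
The 2 genes whose annotated starts include this window were thus both higher in Ctrl.

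Of the 16 lung and airway genes tested, 11 were higher in Ctrl and 2 in DMSO, with a median log2 difference of -1.76, and the other 16 of the 32 listed were too low to test. That median was -1.26 with no filter on low counts, -1.28 among members with a mean of at least 5 CPM and -1.31 in a joint fit of 13 libraries. It was -1.27 and -1.50 without Ctrl replicate 1 or 2, and -1.32 without DMSO replicate 2. The surfactant genes did not follow in full. SFTPB, a surfactant protein of alveolar cells, read only 1.44 and 0.815 CPM in Ctrl (9 counts in all DMSO libraries together, ratio 13.2, 6.75 to 29.5), and NAPSA, an aspartic protease of the same cells, read 0.848 CPM in Ctrl and 1.56 CPM in DMSO, a difference that lost its call without Ctrl replicate 1 (1.08), Ctrl replicate 2 (0.69) or DMSO replicate 2 (0.65). Of 19 regulators of gut, liver and other endoderm, 12 were higher in Ctrl and 3 in DMSO, with a median of -1.17 (-0.67 among members with a mean of at least 5 CPM). Among them, CEBPA, a regulator of liver and fat cells, read 5.07 CPM in Ctrl and 0.215 CPM in DMSO, while GATA6, an endodermal factor, was higher in DMSO, at 42.6 CPM ± 1.58 (SD, n = 3) against 14.7 CPM ± 1.13 (SD, n = 2).

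The breast lineage list was split between the groups. Of 19 genes tested, 11 were higher in DMSO and 7 in Ctrl, with a median of 0.45 (1.00 among members with a mean of at least 5 CPM). GATA3, the luminal breast factor, read 12.99, 14.2 and 15.5 CPM in DMSO and 4.70 and 5.52 CPM in Ctrl, a difference of 1.48 ± 0.15. EHF, an epithelial ETS factor, read 95.4, 91.7 and 86.2 CPM in DMSO, and 0 and 0.228 CPM in Ctrl, a count ratio of 794 (473 to 1452). On the other side, TFF3, a secreted trefoil peptide of breast and gut, read 20.3 CPM in Ctrl and 0.581 CPM in DMSO. TRPS1, a GATA-type repressor used as a breast marker, was also higher in Ctrl, at 42.3 CPM ± 2.74 (SD, n = 2) against 11.5 CPM ± 0.697 (SD, n = 3). The hormone receptors that triple-negative cells lack were at or near 0 in both groups. ESR1 had 8 counts in each group (count ratio 1.15, 0.377 to 3.52) and PGR had 1 count in Ctrl and 0 in DMSO. ERBB2 read 84.3 CPM ± 4.60 (SD, n = 2) in Ctrl and 99.6 CPM ± 2.50 (SD, n = 3) in DMSO, a difference of 0.24 ± 0.06 that lost its call when trends on GC content and length were removed.

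Regulators of neural, basal and mesodermal cells also diverged in both directions, as did genes in general (36.8% higher in DMSO, 37.2% in Ctrl). Of 26 tested, 13 were higher in DMSO and 9 in Ctrl, with a median of 0.27. The nuclear receptors NR2F1 and NR2F2, close relatives known for patterning neural and vascular tissue, were exchanged. NR2F1 read 108 and 80.7 CPM in Ctrl and 9.68, 11.2 and 8.47 CPM in DMSO, whereas NR2F2 read 35.7 and 32.3 CPM in Ctrl and 299, 285 and 294 CPM in DMSO. The differences were -3.26 ± 0.12 for NR2F1 and 3.11 ± 0.07 for NR2F2. POU3F2, a neural factor, read 19.3 CPM in Ctrl and 0.329 CPM in DMSO, and MEIS1 and PRRX1, homeodomain factors of mesoderm, 5.21 and 4.39 CPM in Ctrl against 0.228 and 0.108 CPM in DMSO. WT1, a zinc finger factor of kidney and mesothelium, had 0 counts in Ctrl and 4.66, 2.84 and 5.27 CPM in DMSO, at least 170.3-fold higher against a floor of 3 counts over the Ctrl group. TP63, the master factor of basal epithelium, was low in both (0.805 and 1.02 CPM, edgeR adjusted p = 0.473). SOX9, a progenitor factor, differed by only -0.20 ± 0.06, at 159.7 CPM in Ctrl and 139 CPM in DMSO, and lost its call without Ctrl replicate 1 (-0.09).

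Single mucins differed in both directions. MUC5AC, the gel-forming mucin of airway and stomach (chromosome 11, 1157953 to 1201138), read 245 and 159.8 CPM in Ctrl and 7.35, 6.33 and 7.77 CPM in DMSO, a difference of -4.83 ± 0.26. Its 2 Ctrl libraries differed from each other, with an SD of 60.3 CPM around a mean of 202 CPM, but both lay above all DMSO libraries. MUC15, a membrane mucin, read 5.28 CPM in Ctrl and had 2 counts in DMSO. MUC4 and MUC1, also membrane mucins, were on the other side, at 9.41 CPM ± 0.867 and 11.2 CPM ± 1.53 in DMSO (SD, n = 3) and 0.0244 and 0.981 CPM in Ctrl. Of 18 mucins and secretory products tested, 10 were higher in Ctrl and 6 in DMSO, with a median of -1.12, and 6 and 5 of them passed 8-fold.

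The simple-epithelial keratins were abundant in both groups. KRT8 and KRT18, the paired keratins of simple epithelia, read 736 and 393 CPM in Ctrl and 730.5 and 362 CPM in DMSO, and neither was called (edgeR adjusted p = 0.857 and 0.0645). KRT19, the smallest acidic keratin, read 308 and 332 CPM (adjusted p = 0.1). Once trends on GC content and length were removed, KRT8, KRT18 and KRT19 were called higher in Ctrl, at -0.21, -0.34 and -0.26, and without Ctrl replicate 1, KRT18 (-0.21) and KRT19 (0.19) were called in opposite directions. KRT7, of glandular epithelia, was higher in DMSO at 585 CPM ± 14.9 (SD, n = 3) against 438 CPM ± 14.0 (SD, n = 2), a call that was lost with the same trends removed (0.06, adjusted p = 0.246). Scaled per kilobase of transcript, KRT8, KRT18, KRT19 and KRT7 stood at 257, 188, 222 and 249.5 CPM per kb in Ctrl and 255, 173, 239 and 334 CPM per kb in DMSO. Hair and epidermal keratins differed more. KRT81, a hair keratin, read 24.1 and 25.5 CPM in Ctrl and 228, 222 and 218 CPM in DMSO, a difference of 3.17 ± 0.07. KRT86 is a near-identical neighbour of KRT81, so the division of reads between them is uncertain. KRT80 was 1.01 ± 0.06 and KRT10 1.69 ± 0.09 higher in DMSO, and KRT15, of basal hair follicle cells, differed by -1.17, at 3.21 CPM against 7.20 CPM. KRT5, the basal keratin, had 10 counts in Ctrl and 0 in DMSO. Of the 51 keratins listed, 36 were too low to test, and of the 15 tested, 9 were higher in DMSO and 3 in Ctrl. Their median of 1.01 rested on few genes, and was 0.66, 0.43 and 0.40 without Ctrl replicate 1, DMSO replicate 2 or DMSO replicate 3, and -0.03 with no filter on low counts.

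Junction genes of epithelia leaned to DMSO only among the largest differences. CDH1, which encodes E-cadherin, read 4.07, 5.36 and 4.70 CPM in DMSO and 0.166 and 0.196 CPM in Ctrl, a count ratio of 26.0 (17.0 to 41.9). PPL, the periplakin of cornified envelopes, read 31.2 CPM ± 2.23 (SD, n = 3) in DMSO and 0.296 CPM ± 0.0426 (SD, n = 2) in Ctrl, and SPINT1, an inhibitor of membrane proteases, 11.7 CPM and 0.610 CPM. EPCAM, the epithelial adhesion molecule, was low in both, at 10.3 CPM in DMSO and 4.49 CPM in Ctrl. In the other direction, CDH3 (P-cadherin) read 4.46 CPM in Ctrl and 0.838 CPM in DMSO, and DSC2, a desmosomal cadherin, 31.1 CPM and 8.26 CPM. Over the 37 genes tested, 17 were higher in DMSO and 14 in Ctrl, all 6 past 8-fold were higher in DMSO, and the median was 0.06. The shares over all genes tested were 36.8% and 37.2%. Past 8-fold they were 4.79% higher in DMSO and 3.71% in Ctrl.

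Mesenchymal genes were high in both groups. VIM, the intermediate filament vimentin, read 2182 and 2128 CPM in Ctrl and 1371, 1502 and 1370.3 CPM in DMSO, a difference of -0.61 ± 0.05. ZEB1, a repressor of epithelial genes, read 68.3 and 65.4 CPM and was not called (edgeR adjusted p = 0.413), but was 0.24 higher in DMSO once trends on GC content and length were removed. The Snail family was exchanged, as SNAI1 read 7.25 CPM in Ctrl and 1.27 CPM in DMSO, and SNAI2 (Slug) 11.1 CPM and 45.7 CPM. WNT5A, a ligand of non-canonical Wnt signalling, read 31.2 and 26.9 CPM in Ctrl and 0.922, 1.21 and 1.502 CPM in DMSO, a difference of -4.60 ± 0.16. ENG, a co-receptor of TGF-beta, read 72.2 CPM in Ctrl and 4.72 CPM in DMSO. S100A4, a calcium-binding protein of motile cells, was 2.61 ± 0.06 higher in DMSO, at 238 CPM against 38.9 CPM. Of 35 genes tested, 19 were higher in DMSO and 13 in Ctrl, with a median of 0.17.

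**Figure D2:**
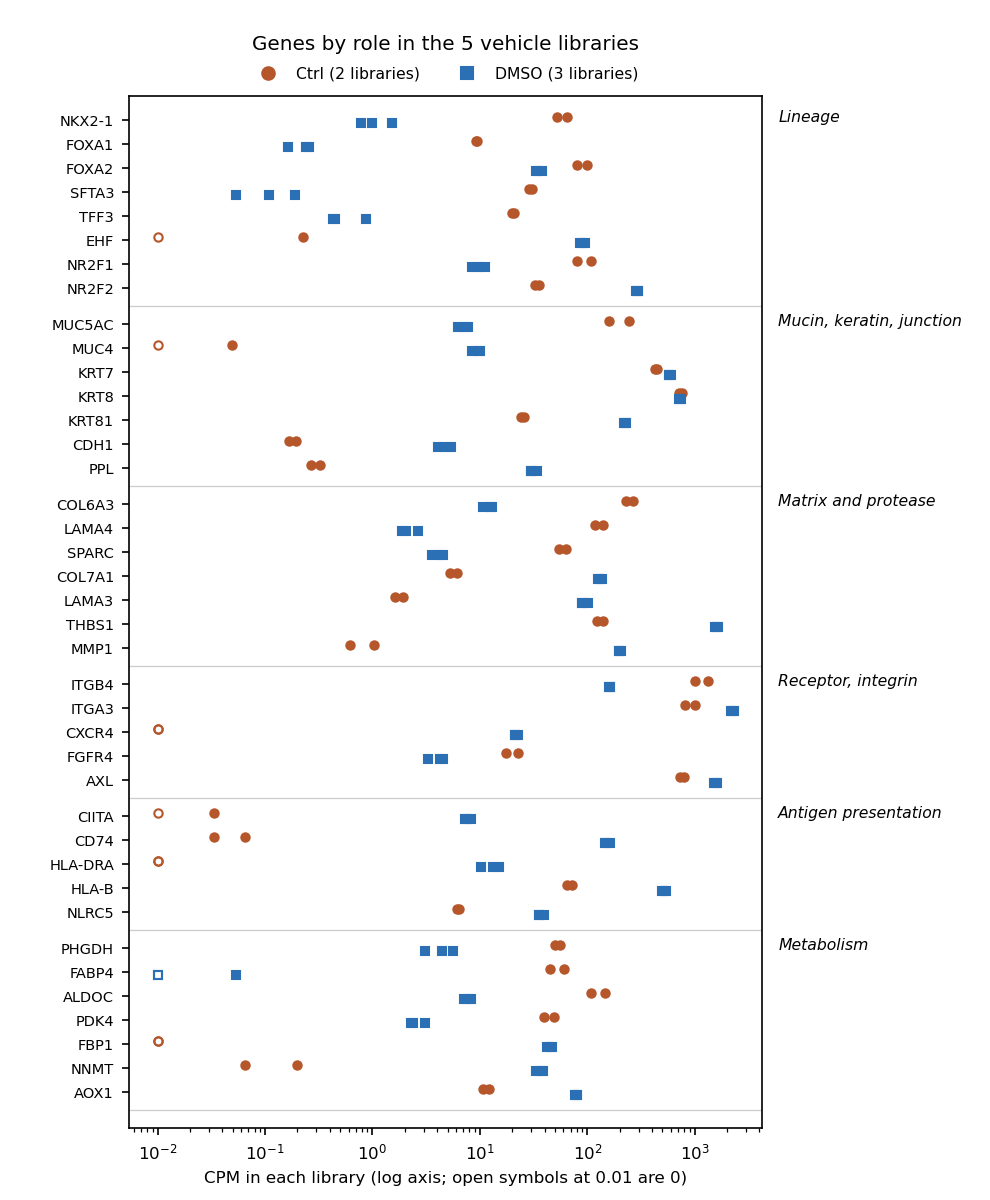
CPM of 39 genes in each of the 5 vehicle libraries on a log axis, grouped by role, with circles for the 2 Ctrl and squares for the 3 DMSO libraries and open symbols for 0. The libraries of a group lie close together and the groups stand apart for each gene shown except KRT8, where 736 CPM in Ctrl and 730.5 CPM in DMSO coincide. Most of these genes were named by a rule that required no overlap between the groups, which held for 81.5% of all genes tested.

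Matrix genes formed 2 different sets. In Ctrl, COL6A3, a chain of microfibrillar collagen VI, read 267 and 231 CPM against 10.7, 12.4 and 12.9 CPM in DMSO, a difference of -4.38 ± 0.08. LAMA4, a laminin chain of vessel and muscle basement membranes, read 141 and 117 CPM against 2.68, 1.88 and 2.05 CPM, and SPARC, a collagen-binding protein, 58.6 CPM ± 6.39 (SD, n = 2) against 4.15 CPM ± 0.482 (SD, n = 3). The rule that named these list genes required no overlap between the groups. In DMSO, COL7A1, the anchoring fibril collagen of skin, read 125, 128 and 138 CPM against 6.19 and 5.29 CPM, and LAMA3, the laminin chain of epithelial hemidesmosomes, 90.1, 89.1 and 101 CPM against 1.94 and 1.61 CPM. THBS1, the adhesive glycoprotein thrombospondin, read 1645, 1554 and 1618 CPM in DMSO and 124 and 141 CPM in Ctrl, a difference of 3.60 ± 0.07. COL4A5, a basement membrane collagen chain, read 27.4 CPM in DMSO and had 6 counts in Ctrl (ratio 552, 254 to 1507), and COL11A1, a fibrillar chain of cartilage, had 0 counts in Ctrl and 5.32 CPM in DMSO, at least 217-fold higher. Of 28 collagens tested, 15 were higher in DMSO and 9 in Ctrl (median 0.58, or 0.12 with no filter on low counts), and of 54 laminins and other matrix proteins, 23 and 20 (median 0.08).

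Proteases of the matrix were higher in DMSO among the largest differences. MMP1, the interstitial collagenase (chromosome 11, 102789920 to 102798160), read 196, 204 and 198 CPM in DMSO and 0.614 and 1.04 CPM in Ctrl, a difference of 7.90 ± 0.12. ADAMTS1 and ADAMTS12, secreted proteases of proteoglycans, read 30.8 CPM ± 1.42 and 44.7 CPM ± 2.96 in DMSO (SD, n = 3) and had 6 and 20 counts in Ctrl. Inhibitors were the leading genes of the other direction. TFPI2, an inhibitor of plasmin, read 381 and 386 CPM in Ctrl and 54.6, 59.6 and 56.9 CPM in DMSO, and SERPINB5 (maspin), a serpin of mammary and other epithelia, 7.95 CPM against 0.111 CPM. Of 41 genes of this list, 21 were higher in DMSO and 13 in Ctrl, with a median of 0.71 (0.37 with no filter on low counts).

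Among integrins, ITGB4, the beta chain of hemidesmosomes, stood out in Ctrl. It read 1315 and 1010.4 CPM there and 159.9, 161 and 162 CPM in DMSO, a difference of -2.85 ± 0.08. ITGA3, a laminin-binding alpha chain, was higher in DMSO at 2243 CPM ± 48.5 (SD, n = 3) against 909.7 CPM ± 144 (SD, n = 2), and ITGA2, a collagen-binding alpha chain, was lower, at 165 CPM against 423 CPM. LAMA3, the laminin chain that the integrin of ITGB4 binds, and ITGB4 thus moved in opposite directions between the groups. Of 21 integrins tested, 10 were higher in Ctrl and 5 in DMSO, with a median of -0.27 (-0.53 without Ctrl replicate 2).

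Receptors at the cell surface separated the groups in both directions. CXCR4, the receptor of the chemokine CXCL12, had 0 counts in both Ctrl libraries and read 22.4, 21.4 and 21.1 CPM in DMSO, at least 878-fold higher. TNFRSF1B, a receptor of tumour necrosis factor, read 11.1, 9.25 and 12.2 CPM in DMSO and had 2 counts in Ctrl (ratio 656, 181 to 5424). NGFR, the low-affinity neurotrophin receptor, read 13.8 CPM ± 1.39 (SD, n = 3) in DMSO and 0.246 CPM ± 0.0665 (SD, n = 2) in Ctrl. Higher in Ctrl were FZD8, a Wnt receptor, at 23.9 CPM against 2.49 CPM, IFNLR1, a chain of the interferon lambda receptor, at 25.5 CPM against 3.66 CPM, and S1PR3, a receptor of sphingosine phosphate, at 37.2 CPM against 5.21 CPM. In the list of 79 cytokine, TGF-beta, Wnt and Notch receptors, 37 were higher in Ctrl and 26 in DMSO, with a median of -0.24. Genes in general also differed in both directions, with 37.2% of those tested called higher in Ctrl and 36.8% in DMSO.

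Growth factor receptors and their ligands also differed in both directions. AXL, a receptor tyrosine kinase of mesenchymal cancer cells, read 1619.7, 1525 and 1564 CPM in DMSO and 794 and 726 CPM in Ctrl, a difference of 1.05 ± 0.05. GAS6, the ligand of AXL, differed by more, at 284, 293 and 317 CPM in DMSO and 9.68 and 7.72 CPM in Ctrl, though it shares its locus with GAS6-AS1. EGFR read 276 CPM ± 42.5 (SD, n = 2) in Ctrl and 159 CPM ± 14.0 (SD, n = 3) in DMSO, and its ligand EREG read 492 and 436 CPM in Ctrl and 26.9, 27.6 and 26.7 CPM in DMSO, a difference of -4.10 ± 0.06. FGFR4 and FGFR3, receptors of fibroblast growth factors, read 20.05 and 12.4 CPM in Ctrl and 3.997 and 1.73 CPM in DMSO, and IGF1R 114 CPM against 45.3 CPM. PDGFRB and EPHB2 were higher in DMSO, at 11.9 and 90.2 CPM against 4.56 and 37.6 CPM. The whole list of 41 receptor tyrosine kinases was divided, with 17 higher in DMSO, 13 higher in Ctrl and a median of 0.15. Among 38 nuclear receptors, 13 and 16 were called in those directions, with a median of 0.00226. Both lists lay near the shares over all genes tested, 36.8% higher in DMSO and 37.2% in Ctrl.

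MHC class II genes were the most one-sided list. CD74, the invariant chain that guides class II molecules (chromosome 5, 150401637 to 150412929), read 146, 149 and 162 CPM in DMSO and 0.0332 and 0.0652 CPM in Ctrl, a count ratio of 3079 (1414 to 8391). HLA-DRA, the class II alpha chain, read 10.2, 13.3 and 15.02 CPM in DMSO and had 0 counts in Ctrl, at least 515-fold higher. CIITA, the transactivator, read 7.21, 8.20 and 7.64 CPM in DMSO and had 2 counts in Ctrl (ratio 468, 129 to 3867). No class II gene named here overlapped between the groups, as was so for 81.5% of all genes tested. The promoters of CD74 and of HLA-DMA, a chaperone of peptide loading that read 12.7 CPM in DMSO and 2.08 CPM in Ctrl, hold the letters CCAAT, the core of the NF-Y box of class II promoters. The upstream windows of 250 bases from RefSeq (GRCh38.p14) lie on chr5:150412911-150413160 for CD74 and chr6:32953098-32953347 for HLA-DMA, both on the minus strand. They are printed 5′ to 3′ with CCAAT, or its reverse complement ATTGG, in capitals.
CD74: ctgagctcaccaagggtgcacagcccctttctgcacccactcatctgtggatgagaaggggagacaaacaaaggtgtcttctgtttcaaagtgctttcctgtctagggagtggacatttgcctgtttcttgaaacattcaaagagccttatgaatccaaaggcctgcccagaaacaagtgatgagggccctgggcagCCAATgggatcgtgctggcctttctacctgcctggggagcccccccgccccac
HLA-DMA: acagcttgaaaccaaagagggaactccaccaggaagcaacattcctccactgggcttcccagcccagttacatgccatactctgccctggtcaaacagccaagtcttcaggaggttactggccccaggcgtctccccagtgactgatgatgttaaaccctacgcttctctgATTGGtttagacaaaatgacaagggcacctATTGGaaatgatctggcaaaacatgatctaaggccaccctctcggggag
In CD74 the box began 53 bases before the start, and in HLA-DMA 79 and 49 bases before it. CCAAT or ATTGG was in 12 of 14 windows of CD74 and the HLA class II genes (85.7%, 13 genes) and in 17 of 27 windows of the whole list (63%), against 11240 of 35116 windows of all genes (32%). A match is a description of the letters and not a bound site.

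Of the 20 class II genes tested, 17 were higher in DMSO and 1 in Ctrl, 9 passed 8-fold, all in DMSO, and the median was 2.52, or 0.67 among the members with a mean of at least 5 CPM. The DNA-binding partners of CIITA differed far less than CIITA itself. RFXANK, a subunit of the RFX complex, read 33.0 and 38.0 CPM, NFYC, a subunit of NF-Y, 38.9 and 44.0 CPM, and CREB1 89.2 and 62.5 CPM in Ctrl and DMSO. CREB1 was the gene of the list that was higher in Ctrl, with a difference of -0.51, which lost its call with trends on GC content and length removed (-0.05). The RFXANK difference of 0.20 turned to -0.15 there. The calls of RFXANK and NFYC were also lost without Ctrl replicate 1 (0.17 and 0.10) or DMSO replicate 2 (0.19 and 0.18), that of RFXANK without DMSO replicate 3 (0.20) and that of NFYC without DMSO replicate 1 (0.14). HLA-DQA1 had 0 counts in all 5 libraries. HLA genes are close copies of each other, so their levels are uncertain where reads could be shared.

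Class I presentation was higher in DMSO as well, by less. HLA-B, a classical class I heavy chain, read 495, 519 and 536 CPM in DMSO and 71.4 and 64.1 CPM in Ctrl, a difference of 2.93 ± 0.06. NLRC5, the transactivator of class I genes, read 35.6, 39.2 and 35.6 CPM against 6.46 and 6.08 CPM, and HLA-F, a non-classical chain, 7.05 CPM against 0.559 CPM. On the Ctrl side, PSME2, an activator subunit of the immunoproteasome, read 139 CPM against 77.6 CPM, and CD276, a checkpoint ligand, 220.3 CPM against 91.6 CPM. Of 30 genes tested, 23 were higher in DMSO and 6 in Ctrl, with a median of 0.72.

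Secreted inflammatory factors were also largely higher in DMSO. IL24, a cytokine of the IL10 family, had 0 counts in Ctrl and read 16.7, 19.6 and 16.2 CPM in DMSO, at least 712-fold higher. CX3CL1, a membrane-anchored chemokine, had 4 counts in Ctrl and read 8.68, 8.98 and 11.6 CPM in DMSO (ratio 293, 114 to 1078). SAA1, an acute phase protein with a near-identical copy, read 33.2 CPM in DMSO against 0.0990 CPM. PTGS2, the inducible cyclooxygenase, went the other way, at 9.62 CPM in Ctrl and 2.83 CPM in DMSO. LIF, a cytokine of the IL6 family, was another exception, at 193 CPM ± 11.6 (SD, n = 2) in Ctrl and 96.3 CPM ± 6.18 (SD, n = 3) in DMSO. IL1B was the third named, at 8.43 CPM against 4.85 CPM. Of 32 genes tested, 22 were higher in DMSO and 5 in Ctrl, 14 passed 8-fold, all in DMSO, and the median was 2.08.

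Interferon-stimulated genes did not move as a block. XAF1, a pro-apoptotic interferon target, had 0 counts in Ctrl and read 14.6, 13.5 and 13.9 CPM in DMSO, BST2 (tetherin) read 81.0 CPM against 1.86 CPM, and IFI27 24.3 CPM against 0.361 CPM. OAS1, a sensor of double-stranded RNA, was the reverse, at 55.8 and 52.6 CPM in Ctrl and 3.31, 2.87 and 3.87 CPM in DMSO. IFI44L and USP18 were also higher in Ctrl, at 8.49 and 15.2 CPM against 1.02 and 2.54 CPM. All 42 listed genes were tested, with 23 higher in DMSO, 14 higher in Ctrl and a median of 0.38.

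**Figure D3:**
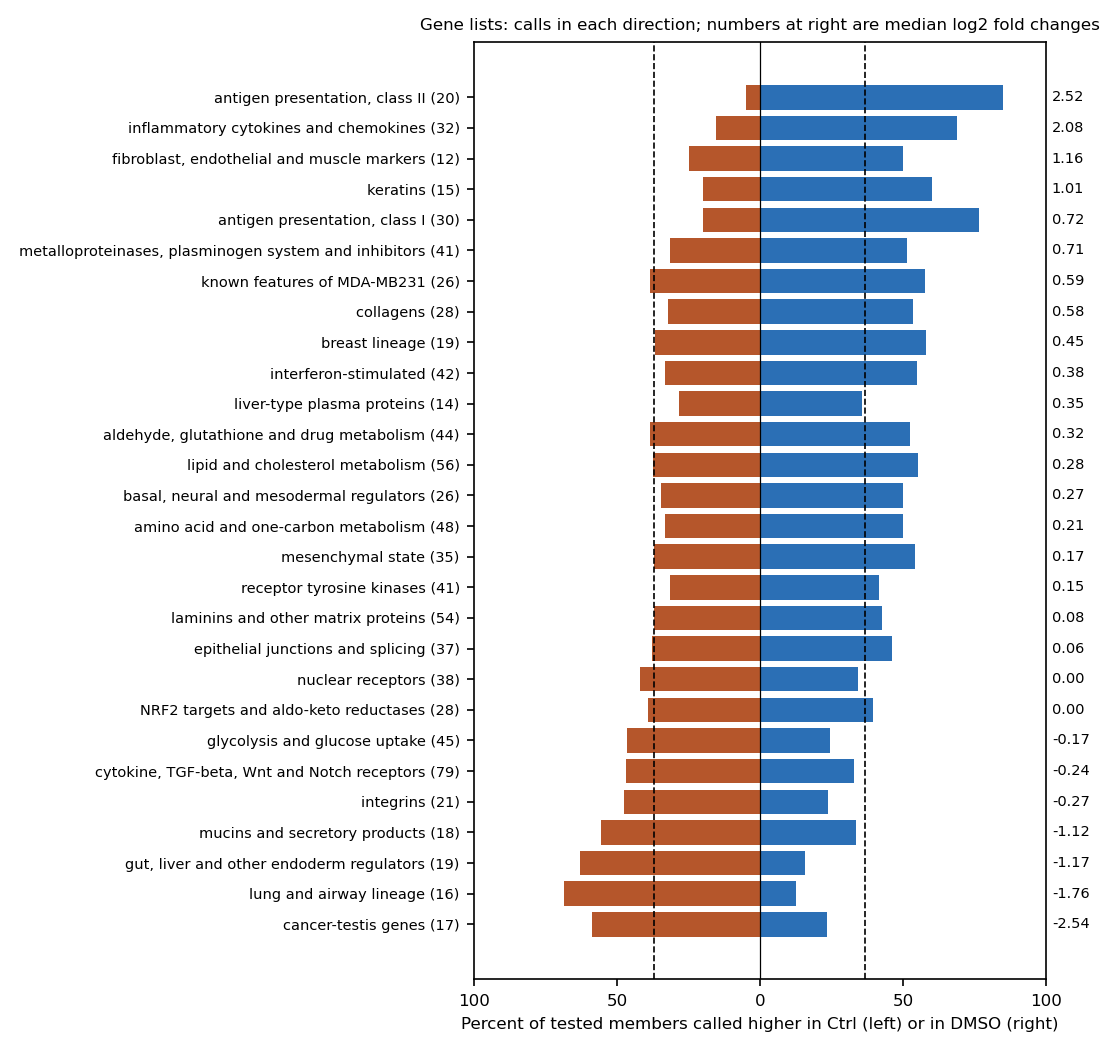
Percent of the tested members of 28 gene lists (number tested in brackets) called higher in Ctrl (bars to the left) and in DMSO (bars to the right), with the median log2 fold change at the right edge and dashed lines at the share of all genes, 37.2% and 36.8%. The class II list, with 17 of 20 genes higher in DMSO, and the lung and airway list, with 11 of 16 higher in Ctrl, have medians of 2.52 and -1.76.

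Metabolic genes differed in both directions within each pathway listed, as did genes in general. Of all genes tested, 36.8% were called higher in DMSO and 37.2% in Ctrl. In glucose metabolism, FBP1, the gluconeogenic fructose bisphosphatase, had 0 counts in Ctrl and read 47.3, 45.7 and 42.5 CPM in DMSO, at least 1837-fold higher. HKDC1, a hexokinase-like enzyme, read 30.5 CPM ± 2.09 (SD, n = 3) in DMSO and 0.132 CPM ± 0.0948 (SD, n = 2) in Ctrl. ALDOC, the brain-type aldolase, read 147 and 107 CPM in Ctrl and 7.08, 7.83 and 8.24 CPM in DMSO, a difference of -4.04 ± 0.12. PDK4, a kinase that restrains pyruvate oxidation, read 44.4 CPM in Ctrl and 2.58 CPM in DMSO. Of 45 genes tested, 21 were higher in Ctrl and 11 in DMSO, with a median of -0.17.

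Among genes of amino acid metabolism, enzymes of serine, arginine and tryptophan led those higher in Ctrl. PHGDH, which starts serine synthesis, read 49.6 and 55.1 CPM in Ctrl and 5.64, 3.06 and 4.41 CPM in DMSO, a difference of -3.58 ± 0.15. ASS1, of arginine synthesis, read 66.1 CPM ± 3.64 (SD, n = 2) in Ctrl and 7.47 CPM ± 0.601 (SD, n = 3) in DMSO, and KYNU, the kynureninase of tryptophan breakdown, 54.6 CPM against 6.08 CPM. GLUL, the glutamine synthetase, and SLC7A5, a carrier of large neutral amino acids, were higher in DMSO, at 118 and 802 CPM against 32.0 and 237 CPM. NNMT, which methylates nicotinamide, had 16 counts in Ctrl and read 33.6, 38.4 and 36.9 CPM in DMSO (ratio 276, 169.7 to 483). Of 48 genes tested, 24 were higher in DMSO and 16 in Ctrl, with a median of 0.21.

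Lipid genes differed in both directions. FABP4, the fatty acid carrier of fat cells and macrophages, read 44.9 and 60.5 CPM in Ctrl and had 2 counts in DMSO (ratio 2783, 770.2 to 22988). PLIN4, a lipid droplet coat protein, read 19.6 CPM in Ctrl and 0.775 CPM in DMSO, and PLA2G4A, the phospholipase that frees arachidonic acid, 20.6 CPM and 0.707 CPM. LSS, of cholesterol synthesis, was 1.85 ± 0.06 higher in DMSO, at 374 CPM against 104 CPM. Of 56 genes tested, 31 were higher in DMSO and 21 in Ctrl, with a median of 0.28. In drug and aldehyde metabolism, AOX1 (78.8 CPM against 11.5 CPM) and CYP27A1 (11.04 CPM against 0.394 CPM) were higher in DMSO, and ALDH1L2, ALDH3A1 and CYP3A5 were higher in Ctrl, at 10.5, 16.5 and 5.46 CPM against 0.662, 1.75 and 0.575 CPM.

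Some genes were read at a mean of at least 20 CPM in 1 group and by at most 3 counts in the other. There were 18 such genes near silent in Ctrl and 2 near silent in DMSO. Among the first, EMC10, a subunit of the membrane protein insertion complex of the endoplasmic reticulum, had 0 counts in Ctrl and read 62.6, 58.3 and 67.8 CPM in DMSO, at least 2539-fold higher. SERPINB9, an inhibitor of granzyme B, and ZSCAN18, a zinc finger protein, also had 0 counts in Ctrl and read 69.5 CPM ± 4.19 and 53.6 CPM ± 4.32 in DMSO (SD, n = 3), as did APBB1IP, an adaptor of Rap1 (51.0 CPM), CLIC6, a chloride channel protein (46.8 CPM), and CPPED1, a phosphatase (44.6 CPM). ABCA8, a membrane transporter, was the counterpart, at 30.03 and 30.1 CPM in Ctrl and 0 counts in DMSO, at least 1057-fold higher in Ctrl. The upstream window of EMC10 is shown because it is rich in CG and carries the letters of the cAMP response element. It lies on chr19:50476257-50476506, plus strand (RefSeq, GRCh38.p14), and is printed 5′ to 3′ with its 25 CG dinucleotides in capitals.
EMC10: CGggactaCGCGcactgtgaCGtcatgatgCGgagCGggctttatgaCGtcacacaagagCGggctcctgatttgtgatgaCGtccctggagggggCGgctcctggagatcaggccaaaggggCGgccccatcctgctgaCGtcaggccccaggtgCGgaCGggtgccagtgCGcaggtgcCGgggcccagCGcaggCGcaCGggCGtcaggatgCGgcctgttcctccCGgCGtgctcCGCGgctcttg
It holds 3 copies of TGACGTCA, a palindrome that reads the same on both strands and was in 578 of 35116 windows (1.65%). Of the 12 genes near silent in Ctrl that had a window, 11 (91.7%) had at least 10 CG in it, with a median of 22, against 9043 of 11159 tested genes (81%), with a median of 20. CG content thus set these windows little apart from those of other tested genes. Methylation was not measured in these libraries.

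Among the other genes with the largest fold differences, CD96, a receptor of lymphocytes, read 207 and 219 CPM in Ctrl and had 20 counts in DMSO (ratio 1122, 726 to 1837). FKBP10, a collagen chaperone, read 257 and 239.9 CPM in Ctrl and 0.407, 0.482 and 0.320 CPM in DMSO, a difference of -9.24 ± 0.11. FGF13, MYOM3, ADD2 and TM4SF18 read 61.1, 40.4, 35.1 and 65.2 CPM in Ctrl and had 6, 6, 6 and 12 counts in DMSO. By difference in level, NEAT1, a nuclear long noncoding RNA, and TGM2, a transglutaminase, were higher in DMSO, at 1304 CPM ± 9.27 and 827 CPM ± 24.3 (SD, n = 3) against 146 and 55.0 CPM. SHISA3, an inhibitor of Wnt and FGF receptors, and SUSD2, a membrane protein, were higher in Ctrl, at 285 and 230.3 CPM against 1.24 and 3.31 CPM.

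Cancer-testis genes, which are normally confined to germ cells, were differently expressed in the groups. MAGEB2 and MAGEC1 on chromosome X read 82.6 CPM ± 0.921 and 124 CPM ± 2.17 in Ctrl (SD, n = 2) and 0.618 and 10.1 CPM in DMSO. SPANXB1, a sperm protein gene with near-identical copies, read 167, 178 and 168 CPM in DMSO and had 21 counts in Ctrl (ratio 990.4, 648 to 1600.4). Of 17 genes tested, 10 were higher in Ctrl and 4 in DMSO, with a median of -2.54, and 21 of the 38 listed were too low to test. The median was -1.30, -1.41 and -1.34 without Ctrl replicate 1, Ctrl replicate 2 or DMSO replicate 2, where the genes tested also changed. MAGEA genes are close copies, so their levels are uncertain.

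Differences of neighbouring genes ran together in some regions. The 14528 tested genes with a position were divided into 361 blocks of about 40 neighbours, of which 10 had a median log2 difference of at least 1 in either direction, between -1.33 and 1.70. The block with the highest median lies on chromosome X from 47651798 to 50814302, where all 40 genes were higher in DMSO and 39 were called. It contains HDAC6, the target of the inhibitors, which read 30.1 and 28.6 CPM in Ctrl and 88.8, 85.8 and 98.0 CPM in DMSO, a difference of 1.63 ± 0.08, close to the median of its block. The blocks on either side had medians of 1.25 and 1.17. The lowest median, -1.33, was on chromosome 1 from 71063291 to 85133138, and further blocks at or below -1 lay on chromosomes 1, 7, 12 and 15. Over whole chromosomes, the lowest medians were -0.70 on chromosome 15, -0.48 on 12, -0.43 on 2 and -0.38 on 8. On chromosome 14, the block from 24809656 to 38041442, which holds NKX2-1 and FOXA1, had a median of -1.32, with 36 of its 41 genes called higher in Ctrl. HDAC6 and NKX2-1 thus each lay in a block of genes that differed in the same direction. Unlike HDAC6, NKX2-1 (-5.73) and FOXA1 (-5.39) differed by far more than the median of their block. Copy number was not measured in these libraries.

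Past 8-fold, 22 runs of at least 3 neighbouring genes were called in the same direction, 14 higher in DMSO and 8 in Ctrl. The run on chromosome 14 from 36473288 to 37172866 holds SFTA3, NKX2-1, NKX2-1-AS1, NKX2-8, PAX9 and SLC25A21, all higher in Ctrl. The longest run, of 10 genes on chromosome 19 from 42752686 to 43363172, holds 9 pregnancy-specific glycoproteins of the PSG family and CD177. PSG9, PSG4 and PSG1 read 14.5, 12.8 and 6.93 CPM in DMSO and had 2, 2 and 0 counts in Ctrl, although these genes are near-identical copies. On chromosome X, a run from 152166234 to 152769747 with MAGEA3, MAGEA6 and MAGEA12 was higher in Ctrl, and MAGEA12 read 38.8 CPM against 3.18 CPM.

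**Figure D4:**
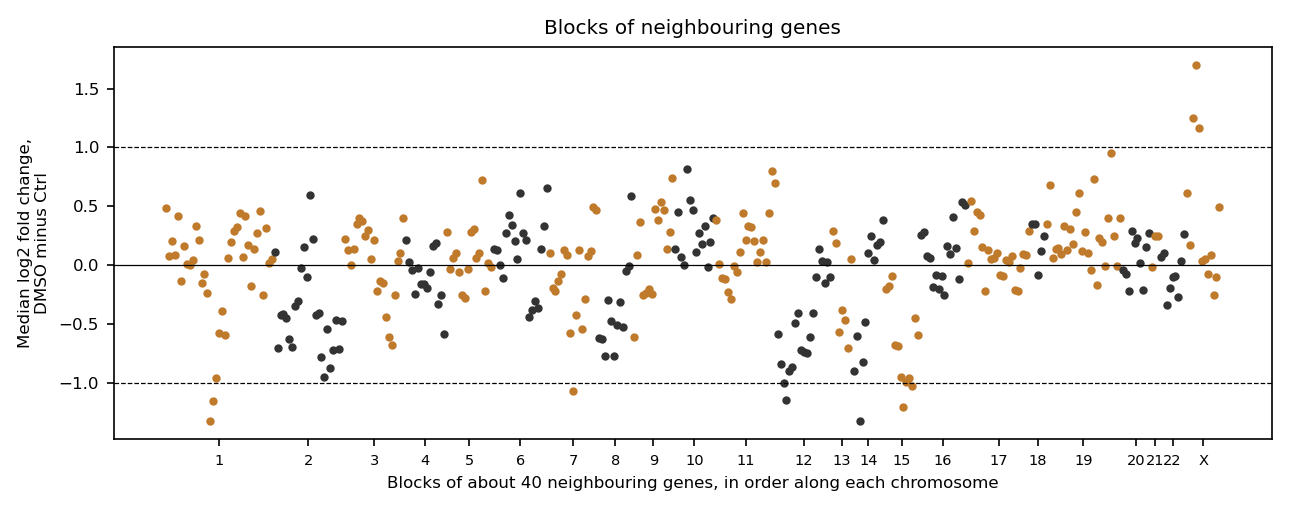
Median log2 fold change, DMSO minus Ctrl, of 361 blocks of about 40 neighbouring genes, in order along each chromosome. Most blocks lie near 0, and the 3 blocks at or above 1 and the 7 at or below -1 include neighbours on chromosome X at 1.25, 1.70 and 1.17 and the block of NKX2-1 on chromosome 14 at -1.32.

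Features known for MDA-MB231 were mostly present in both groups, and the strongest differences among them were higher in DMSO. The list of 26 such genes was chosen with earlier results of these data known and is no independent evidence. Of these, 15 were higher in DMSO, 10 in Ctrl, and 1, ZEB1, was not called. The 6 genes past 8-fold, all higher in DMSO, were CD74, HLA-DRA, MMP1, IL6, KRT81 and F3. F3, the tissue factor that starts coagulation, read 1016, 991 and 969 CPM in DMSO and 112 and 128 CPM in Ctrl. CD44, the hyaluronan receptor, read 614 CPM ± 2.61 (SD, n = 3) and 337 CPM ± 4.96 (SD, n = 2). Among the features higher in Ctrl were VIM, EGFR, TGFBI (148 CPM against 68.3 CPM) and NT5E, the ectonucleotidase CD73, at 1644 and 1544 CPM in Ctrl and 471, 469 and 445 CPM in DMSO. CDKN2A, lost from this line, had 0 counts in all 5 libraries, and its neighbour MTAP had 2 counts in Ctrl and 0 in DMSO. Both groups thus lacked CDKN2A and MTAP transcripts and the hormone receptors, and only the Ctrl libraries carried NKX2-1 above 2 CPM.

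Markers of other cell types were examined in the same libraries. Of 16 blood cell markers, 4 had 0 counts in all libraries, MS4A1, AIF1 and TYROBP among them, and PTPRC, the pan-leukocyte marker, had 0 counts in Ctrl and 62 in DMSO. The summed level was 535 to 556 CPM in Ctrl, against 159 to 162 CPM in DMSO. It was carried by LAPTM5 (364 CPM in Ctrl, 34.5 CPM in DMSO) and CD68 (178 and 118 CPM), both lysosomal proteins, and without them the sum was 3.22 to 3.88 CPM in Ctrl, against 7.80 to 8.30 CPM in DMSO. The 18 fibroblast, endothelial and muscle markers summed to 37.0 to 41.6 CPM in Ctrl, against 39.6 to 44.0 CPM in DMSO. Of the 12 tested, 6 were higher in DMSO and 3 in Ctrl, with a median of 1.16 (0.55 with no filter on low counts). The endothelial markers went both ways, as PECAM1, an adhesion molecule, read 16.3 CPM in Ctrl and 2.09 CPM in DMSO, and KDR, a receptor of vascular growth factors, 1.20 CPM and 5.06 CPM. COL1A1, a fibrillar collagen of fibroblasts, read 7.07 CPM in Ctrl and 13.5 CPM in DMSO, and DCN, THY1 and FAP of fibroblasts had at most 6 counts in either group. The part of such cells in the other results was not tested.

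The same genes were read in the other 17 libraries, scaled together with these 5 and described without a test. Of the 746 genes higher in DMSO past 8-fold, 697 (93.4%) were also higher in the HPOB and Tubastatin A libraries than in those of Nexturastat A, and 575 of the 578 genes of the other direction (99.5%) were lower. The treated libraries come from the same 2 experiments and also differ in inhibitor, so these shares are no independent evidence. The same share over all genes tested is not given here. On 1 scale, log2(CPM + 0.5), 268 of the 746 genes differed by at least 8-fold between the vehicle groups, and 170 of these (63.4%) also between the treated cells. In the other direction this was 205 of 578 genes, of which 146 (71.2%) did so. The median difference over the 746 genes was 2.40 in vehicle and 1.81 in treated cells, and over the 578 genes -2.57 and -2.63. NKX2-1 read 32.0 and 36.8 CPM with Nexturastat A and 0.751 to 0.896 CPM with HPOB. CD74 read 0.240 and 0.143 CPM with Nexturastat A and 165 to 226 CPM with HPOB. Part of the genes did not follow the experiment, as 180 and 151 of the 746 genes lay nearer to DMSO than to Ctrl in the 2 Nexturastat A libraries. MUC5AC lay under its DMSO range of 6.42 to 7.90 CPM with Nexturastat A, at 0.575 and 3.29 CPM, although the Ctrl libraries of that experiment read 239 and 157 CPM on this scale. KRT81 read 178 and 167 CPM with Nexturastat A, near its 222 to 233 CPM in DMSO and above the 23.5 and 25.1 CPM of Ctrl. In these libraries KRT81 and MUC5AC thus also separated Ctrl from the treated cells of the same experiment.

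The control hairpin libraries of the series, at day 0, matched neither group throughout. The third shCtrl library stood apart from the others, with a correlation to Ctrl of 0.985 across genes against 0.863 and 0.856 for the other two. EMC10 read 0 CPM in that library and 148 and 159 CPM in the others, and CXCR4 read 0.0809 CPM and 5.37 and 4.57 CPM. NKX2-1 read 63.3 CPM in it and 15.7 and 15.5 CPM in the others. In these 3 genes the third shCtrl library was close to Ctrl, with NKX2-1 at 63.0 and 51.8 CPM and 0 counts of EMC10 and CXCR4 there. FKBP10 was read at 115 CPM or more in all libraries outside the HPOB and Tubastatin A experiment, and at 0.647 CPM or less within it.

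**Figure D5:**
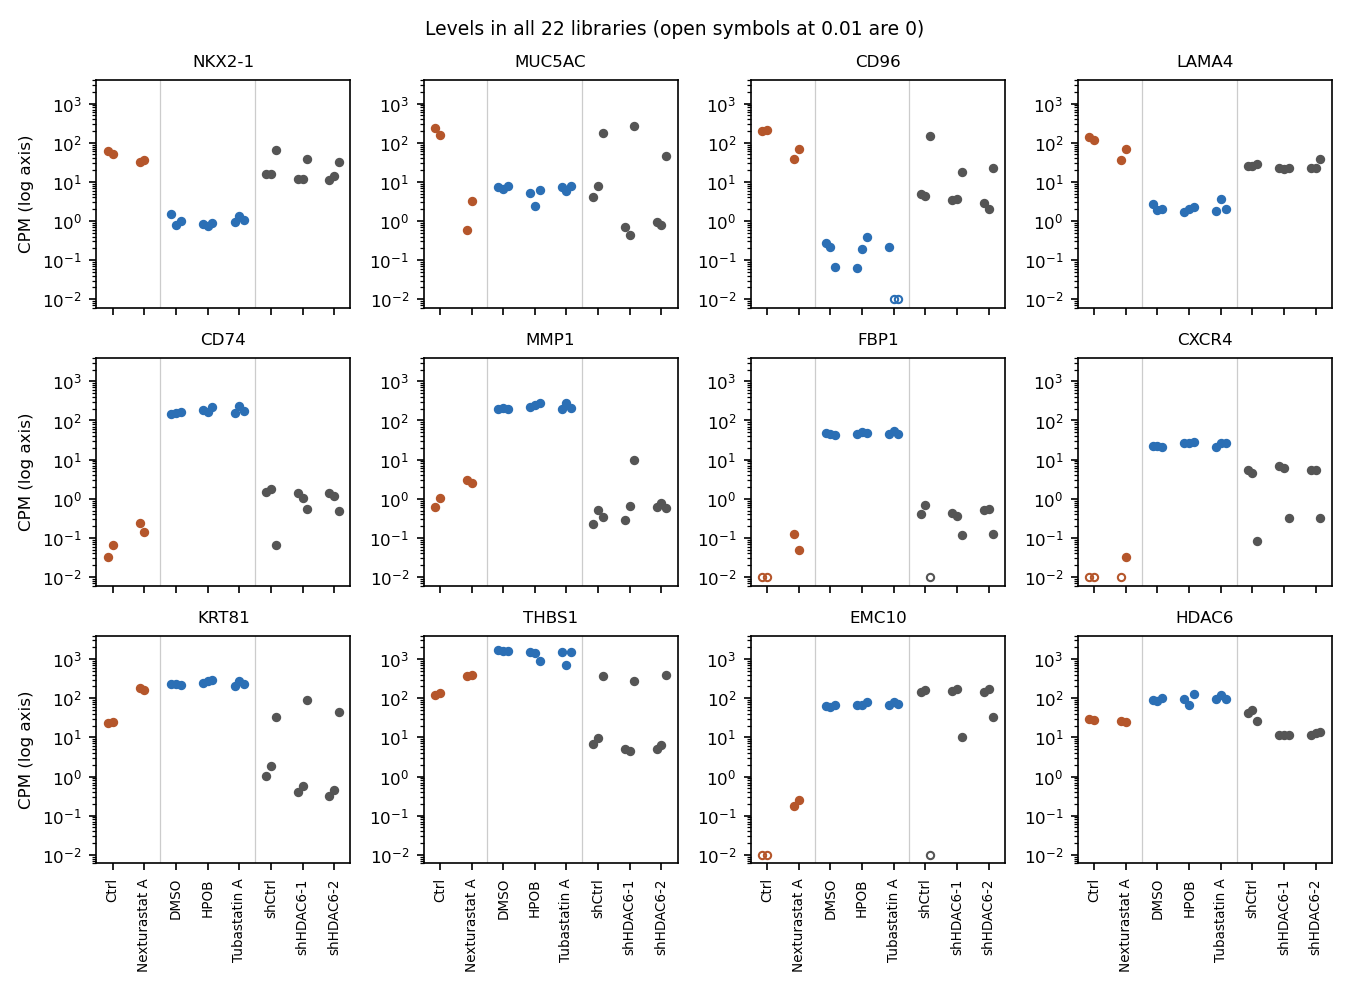
CPM of 12 genes in each of the 22 libraries on a log axis, by group in the order Ctrl, Nexturastat A, DMSO, HPOB, Tubastatin A, shCtrl, shHDAC6-1 and shHDAC6-2, with open symbols for 0. CD74, MMP1, FBP1 and CXCR4 are higher in each of the 9 libraries of the HPOB and Tubastatin A experiment than in any other library, while MUC5AC and KRT81 differ between the Ctrl and Nexturastat A libraries.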

How the data were processed

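RNA sequencing libraries labelled as MDA-MB231 were analysed from the deposited tables of raw counts of reads per gene symbol, 1 table per library with 26485 symbols. Per the submitters' processing notes, the authors used Trim Galore 0.6.7, STAR 2.7.9a, featureCounts 2.0.3 and DESeq2 1.30.1 with GRCh38. For the gene annotation and the strand setting of the counts, nothing is stated in those notes, and reads were not marked with molecular identifiers, so counting intervals (95%) and the floor of 3 counts per group cover counting error alone.

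The 5 vehicle libraries were fitted with edgeR 4.0.16 in R 4.3.3. After filterByExpr (at least 10 counts, 15 in total) and TMM scaling, genes were tested by the robust quasi-likelihood method and adjusted by Benjamini-Hochberg over 15585 genes. The floor equals 0.0247 CPM over the Ctrl group and 0.0284 CPM over the DMSO group. Where a group had fewer than 30 counts, ratios were computed from scaled counts, or as a bound against the floor where it had 0 counts. Coordinates and transcript lengths come from GENCODE release 29 (GRCh38), matched by symbol for 23824 symbols, and promoter windows from RefSeq. Levels in all 22 libraries use TMM factors over those libraries and differ slightly. In simulated counts with 200 changed genes, the fit recovered 81 of 100 changes of 2-fold and 99 of 100 of 8-fold, with 15 false calls. Far fewer genes were changed there than were called here, so the simulation cannot test the scaling of these data.

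Within groups, libraries differed by more than counting noise (chi-square per degree of freedom 4.37 to 21.8, against 354 to 389 between groups), so none was counted as a repeat. The deviations of same-numbered libraries from their group means correlated at -0.0117 and 0.0544 across genes, so the numbers were not taken as pairs.

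The 30 gene lists (1157 genes, 1153 of them in the tables) and all tests were chosen with earlier results of these data known. Named genes are 4 markers, 27 defining members of the lists whatever their values, the 3 highest and 3 lowest called differences of each list with no overlap and at least 4 CPM in the higher group, and the 8 largest fold differences (at least 20 CPM) and level differences in each direction over all genes. The genes HLA-DMA, HLA-DQA1, IL6, the PSG family, members of the runs and near-silent genes, and markers of other cell types fall outside this rule or were chosen after their values were seen. A few genes that the rule names are not reported here. Alternatives were RLE and upper-quartile factors, DESeq2 1.42.0, limma 3.58.1 voom, no filter on low counts, a mean of at least 5 CPM, a replicate block, a joint fit of 13 libraries, leaving out each library and, added after seeing the data, removal of trends on GC content and length (splines with 3 degrees of freedom).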

Additional observations from a re-analysis of the deposited data

How the results depend on the processing

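The number of genes called was between 8832 and 11905 under all alternatives, against 11530, and 10919 to 11150 without 1 library in turn. Leaving out a Ctrl replicate leaves a lone library that is assumed to vary like the DMSO libraries. The counts past 8-fold were 234 higher in DMSO and 139 higher in Ctrl among genes with a mean of at least 5 CPM, a filter that leaves 11167 of the genes to test, and otherwise 707 to 964 and 571 to 791. Among called genes, the share higher in DMSO was 47.2% to 51.4%, and the scaling alternatives moved the median of all genes by under 0.1. With the replicate block, 11078 genes were called, and of the named genes the block ended the call of RFXANK alone. The replicate numbers did not pair the libraries. Of 199 named genes tested, 188 to 199 kept their direction and side of the threshold under each alternative, or 163 of 164 with the filter at 5 CPM. Removing trends on GC content and length gave -0.26 for KRT19, -0.15 for RFXANK and 0.24 for ZEB1 (adjusted p = 0.00165), each of opposite sign to the value reported, and the cause was not tested. KRT8, at -0.011 and not called, turned to 0.020 with upper-quartile factors, 0.0015 with the filter at 5 CPM, 0.029 in the joint fit, and ranged from -0.0640 to 0.032 without 1 library in turn (0.0011 without DMSO replicate 1). Genes under the floor of 3 counts cannot be given a fold at this depth.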

Other observations

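Genes of complement and coagulation, made mainly by liver, also separated the groups. C3, the central complement component, read 20.7, 22.5 and 25.2 CPM in DMSO and had 26 counts in Ctrl (ratio 106, 72.3 to 163). CFB, which forms the alternative pathway convertase with it, read 22.5 CPM ± 5.16 (SD, n = 3) in DMSO and 0.495 CPM ± 0.193 (SD, n = 2) in Ctrl. Of 14 liver-type plasma protein genes tested, 5 were higher in DMSO and 4 in Ctrl, and 27 of the 41 listed were too low to test.

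Targets of the oxidative stress factor NRF2 were evenly divided, as were genes in general, with 11 of 28 higher in each group. Over all genes tested, 36.8% were called higher in DMSO and 37.2% in Ctrl. AKR1B1, an aldose reductase, read 266 CPM ± 10.7 (SD, n = 3) in DMSO and 101 CPM ± 6.42 (SD, n = 2) in Ctrl, and HMOX1, the inducible haem oxygenase, 23.2 CPM and 11.3 CPM. AKR1C2 and AKR1C1, steroid reductases with near-identical copies, were higher in Ctrl, at 7.12 and 8.26 CPM against 0.793 and 3.24 CPM. The RNA-binding protein IGF2BP3, an oncofetal regulator, read 184 and 175 CPM in Ctrl and 30.1, 31.9 and 30.5 CPM in DMSO, a difference of -2.54 ± 0.06.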
